A study of Arabidopsis thaliana with 12 samples.

Results

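The m6A comparison of a mettl16 mutant with the wild-type accession Col-0 is described here in well expressed genes of Arabidopsis thaliana. Of the 6437 entries in the authors' deposited table of differential m6A peaks, 3481 lay in 3249 genes that averaged 10 FPKM or more across the 6 RNA-seq (input) libraries. FPKM is a transcript level scaled by transcript length and library size. A further 2936 entries in 2737 genes were under 10 FPKM, and 20 entries in 17 genes had no expression value. All 6003 genes with a peak stand beside 25566 genes in the expression table, of which 9342 reached 10 FPKM. The 4 groups were m6A immunoprecipitates of mettl16 and of Col-0 and RNA-seq libraries of mettl16 and of Col-0, with 3 biological replicates each and 12 samples in all. All came from the aerial part of 3-week-old plants grown with 16 h of light and 8 h of dark at 23 °C. The labels name neither the mutant allele nor the number of plants in a sample. Limma, a linear model fitted to log2(FPKM + 1) of all genes, called 8016 of 19505 tested genes higher (41.1%) and 4568 lower (23.4%) in mettl16 at an adjusted p under 0.05. Among the 3249 genes with a peak the shares were 47.7% higher and 25.7% lower. Values in mettl16 were all above those in Col-0 in 43.9% and all below in 25.9% of the 19505 tested genes. FIO1 (AT2G21070), the Arabidopsis homologue of METTL16, was taken from general knowledge to be the mutated gene. Its transcript was at 0.292, 0.148 and 0.197 FPKM in the mettl16 libraries, against 1.98, 2.12 and 2.31 FPKM in the Col-0 libraries, without overlap (log2 change -1.37 ± 0.0853, SE, limma adjusted p = 4.94e-07). FIO1 had no m6A peak in the authors' deposited table.

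N6-methyladenosine (m6A) is the most common internal modification of eukaryotic messenger RNA. In plants a methyltransferase complex built on MTA and MTB writes most of it, chiefly near stop codons and in 3' UTRs, YTH-domain proteins of the ECT family bind it, and ALKBH demethylases remove it. METTL16-type enzymes are a separate class that methylate the U6 spliceosomal RNA and a limited set of messenger RNAs. In MeRIP-seq, fragmented RNA is pulled down with an antibody against m6A, so a peak is a stretch of transcript enriched in the immunoprecipitate and not a single methylated base.

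Most peaks in well expressed genes were lower in mettl16, and nearly all changes were small. In the authors' deposited table, 2292 of these 3481 peaks were lower and 679 were higher at an FDR under 0.05, and 510 passed in neither direction. The background over the authors' deposited table as a whole was 51.6% lower and 17.6% higher peaks. The median log2 fold change, mettl16 over Col-0, was -0.20 in the authors' deposited table, with quartiles of -0.31 and -0.09. A log2 fold change of 0.5 or more in size was reached by 163 lower and 41 higher called peaks of the authors' deposited table. Only 1 peak lay within 0.05 of 0 and 140 within 0.1, so unchanged peaks are scarce in what was deposited. Per gene, 2138 of the 3249 genes had at least 1 lower and no higher peak, which is 65.8% and is called lower m6A below. Another 636 genes, 19.6%, had the reverse and are called higher m6A, 31 had called peaks in both directions, and 444 had none. Over all 6003 genes with a peak, whatever their level, 51.6% had lower and 17.8% higher m6A.

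Because the median of all entries was -0.23, the split depends on where no change is set. With folds centred on that median and the FDR kept, 1274 genes had lower and 1472 had higher m6A. That FDR belongs to the fold as deposited, so a centred class gives only the side of the median on which called peaks lie. Centring on a median also places about as many entries above it as below, whatever the data. Every direction below is that of the folds as deposited, mettl16 over Col-0 as read from the order of genotypes in the table's name. Centred counts are given beside those of the groups and lists described.

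The share of peaks called depended on transcript level. Between 10 and 20 FPKM, 57.0% of peaks were lower, 20.1% were higher and 22.9% were not called in the authors' deposited table. Between 100 and 1000 FPKM, 85.0% were lower, 12.3% higher and 2.70% not called. The median fold moved little, at -0.22 in the lowest and -0.19 in the 100 to 1000 FPKM class. Among the 25 peaks in genes at or above 1000 FPKM, 17 were lower and 8 higher. Across the 3481 peaks, Spearman's rho of fold with mean FPKM was 0.0455. Genes just inside the limit were AT5G20165 (10.0001 FPKM), AT1G53290 (10.0093 FPKM) and AT4G08580 (10.0123 FPKM), with mean folds of 0.18, -0.27 and -0.17 in the authors' deposited table. Just outside lay AT5G46150 (9.9985 FPKM), AT1G21160 (9.99592 FPKM) and AT1G71170 (9.98891 FPKM), at -0.30, -0.35 and -1.15.

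**Figure D1:**
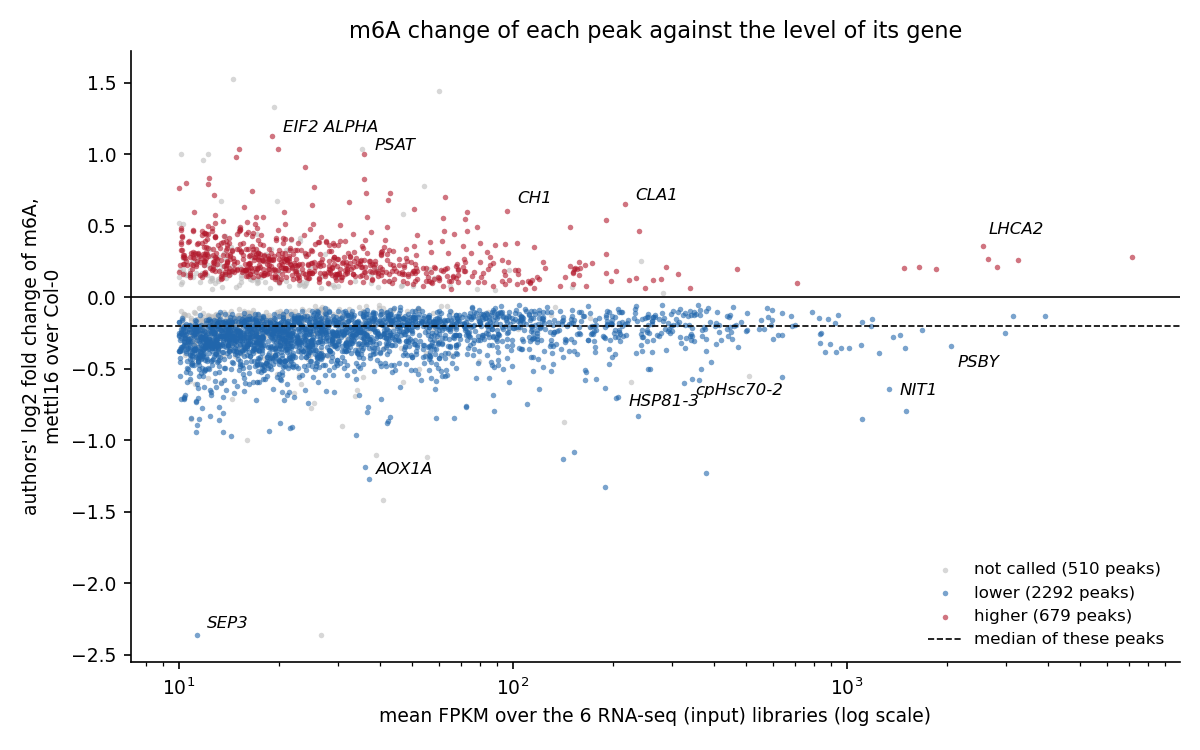
Each point is 1 of the 3481 peaks, with the mean FPKM of its gene on a log axis and the authors' log2 fold change of m6A, mettl16 over Col-0, on the vertical axis. Lower peaks (2292) lie in a band below 0 at every level, the dashed median is at -0.20, and the highly expressed photosystem gene LHCA2 is among the higher peaks.

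The input libraries were alike within a genotype and differed between genotypes. Pearson's r of log2 values was 0.994 to 0.996 within and 0.957 to 0.959 across genotypes. FPKM summed to 699031 to 706690 in mettl16 and to 714685 to 718824 in Col-0, and read depth is not stored in FPKM. Summed FPKM of 4 leaf mesophyll markers was 29259 to 31758 in mettl16, against 37594 to 39008 in Col-0. The 4 did not move together. RBCS1A, which made up most of the sum, averaged 22145 FPKM in mettl16 and 20755 FPKM in Col-0 (limma adjusted p = 0.0442). The other 3, LHCB1.1, LHCB1.2 and RBCS2B, were lower in mettl16. Summed FPKM of 7 floral organ markers was 78.9 to 80.5 in mettl16, against 2.46 to 2.76 in Col-0. For 7 anther and tapetum markers it was 11.5 to 13.7 in mettl16 and 0.0909 to 0.162 in Col-0, where A9, A6, ATA7, MS1 and DYT1 were listed at 0. The 2 pollen markers VGD1 and PPME1 summed to 0.492 to 0.621 FPKM in mettl16 and were listed at 0 in Col-0. Carpel markers summed to 2.16 to 2.41 FPKM in mettl16 and 0.17 to 0.235 FPKM in Col-0, with STK listed at 0 in Col-0. Only 2 of 4 root markers had expression values, and 1 of these, COBL9, was listed at 0 in Col-0. They summed to 63.9 to 68.0 FPKM in mettl16 and 63.3 to 65.5 FPKM in Col-0. Of these marker genes, only SEP3 is a well expressed gene with a peak. In such bulk samples fewer cells of a type and less RNA per cell cannot be told apart, and the part of organ content in the m6A differences was not tested.

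Among called peaks, the largest decreases were in genes of very different function. SEP3 (AT1G24260), a MADS-box regulator of floral organ identity, had a 3' UTR peak (chromosome 1, 8593637 to 8594024, build TAIR10) at a log2 fold of -2.36 (FDR 0.00724) in the authors' deposited table. Its transcript was at 21.9, 22.4 and 23.1 FPKM in the mettl16 libraries, against 0.136, 0.316 and 0.195 FPKM in the Col-0 libraries, so it reached the 10 FPKM mean through mettl16 alone and its Col-0 reference rests on almost no transcript. AOX1A (AT3G22370), the alternative oxidase of the mitochondrial respiratory chain, had a 3' UTR peak (chromosome 3, 7908154 to 7908681) at -1.19 with an FDR of 7.94e-46 in the authors' deposited table. AOX1A transcript was at 52.5, 54.8 and 53.3 FPKM in the mettl16 libraries, against 19.2, 18.8 and 18.7 FPKM in the Col-0 libraries. All mettl16 values were above all Col-0 values, and the expression log2 change was 1.45 ± 0.0324 (SE, limma adjusted p = 6.09e-10). Expression log2 changes are on the log2(FPKM + 1) scale throughout and understate changes at low values.

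Most of the other large decreases had FDRs between 0.001 and 0.05. CDSP32 (AT1G76080), a chloroplast thioredoxin-like stress protein, had a 3' UTR peak of 91 bases at -1.33 (FDR 0.0347) in the authors' deposited table. MAP1D (AT4G37040), an organellar methionine aminopeptidase, had overlapping 3' UTR peaks at -0.18 (FDR 0.00525) and -1.27 (FDR 0.0339), as the authors' deposited table lists them. The ribosomal protein gene emb2171 (AT3G04400) had a 3' UTR peak of 90 bases at -1.23 (FDR 0.0011) next to one of 534 bases at -0.38 (FDR 5.01e-56), as the authors' deposited table lists them. AT1G07590, AT1G58983, CDEF1, AT5G59080 and AT3G09570 completed the 10 genes with the lowest called peaks, from -1.13 to -0.94 with FDRs of 0.00112 to 0.0269 in the authors' deposited table. A further 5 peaks at -0.94 or below, reaching -2.36, were not called, with FDRs of 0.201 or more in the authors' deposited table. AT1G58983, an S5 family ribosomal protein, has near-identical copies and its values are uncertain for that reason. Among these 5, the cutinase gene CDEF1 (AT4G30140) had the largest expression difference, at 5.36, 5.39 and 5.36 FPKM in the mettl16 libraries, against 23.7, 23.1 and 23.4 FPKM in the Col-0 libraries. CDEF1 values did not overlap, with a log2 change of -1.94 ± 0.0396 (SE, limma adjusted p = 3.66e-10).

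The largest increases among called peaks lay in 3' UTRs and in other exons. At a log2 fold of 1 or more, 2 of 4 called peaks were in a 3' UTR and 2 in another exon. Of all 679 higher peaks, 637 were in a 3' UTR. In the authors' deposited table another 7 peaks at 0.79 or above, reaching 1.53, were not called, with FDRs of 0.12 or more. EIF2 ALPHA (AT5G05470), a subunit of the initiation factor that carries initiator tRNA to the ribosome, had a 3' UTR peak (chromosome 5, 1622172 to 1622502) at 1.13 (FDR 1.45e-06) in the authors' deposited table. Its transcript was at 22.3, 21.7 and 21.7 FPKM in the mettl16 libraries, against 16.7, 17.8 and 14.2 FPKM in the Col-0 libraries, with no overlap (log2 change 0.42 ± 0.0701, SE, limma adjusted p = 6.27e-04). AT1G63880, a TIR-NBS-LRR disease resistance gene, had a peak in exon 4 of 4 (chromosome 1, 23713319 to 23713438) at 1.04 (FDR 4.57e-09) in the authors' deposited table. The 3' UTR peak of the same gene was at -0.08 (FDR 0.284) in the authors' deposited table and was not called. A transposable element gene, AT1G35115.1, had peaks at 0.47 (FDR 2.40e-08) and 1.04 (FDR 1.00e-106) in its single exon in the authors' deposited table. PSAT, an enzyme of plastid serine synthesis, was at 1.00, the auxin-response repressor IAA28 at 0.98 and the phosphogluconolactonase PGL5 at 0.91 in the authors' deposited table. IQD3, IMPL1, AT4G38020 and AT2G38010 followed at 0.84, 0.83, 0.80 and 0.79 in the authors' deposited table. IAA28, PGL5 and IMPL1 had overlapping FPKM in the 2 genotypes and limma adjusted p-values of 0.716, 0.119 and 0.27.

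Position and shape of the peak went with the size of the fold. The authors' deposited table places 2894 of the 3481 peaks in a 3' UTR, 336 in a 5' UTR and 251 in another exon. Peaks in other exons had a median log2 fold of -0.33, with 81.7% lower and 3.59% higher, in the authors' deposited table. Those in 5' UTRs were at -0.25, with 75.9% lower and 9.82% higher, and those in 3' UTRs at -0.19, with 63.3% lower and 22.0% higher. Peaks can span splice junctions, and the authors' deposited table gives each as 1 or more blocks. The median was -0.26 for 1 block (71.6% lower, 9.57% higher) and -0.10 for 4 or more blocks (49.1% lower, 41.6% higher) in the authors' deposited table. The share of higher peaks also grew with blocks within 3' UTRs, where 1-block peaks were 69.1% lower and 11.3% higher and peaks of 4 or more blocks 45.1% lower and 44.9% higher. Peaks of 59 to 200 bases had a median of -0.34 with 39.6% not called, and peaks over 800 bases a median of -0.13 with 33.6% higher, in the authors' deposited table. In 3' UTR peaks of 1 block, medians were -0.39 at 59 to 200 bases, -0.20 at 401 to 600 bases and -0.25 over 800 bases, the last over 29 peaks. The higher share did not grow steadily with width in them, at 9.26%, 13.0% and 0 of 29 in these 3 classes. Spearman's rho of fold with width was 0.367 and with block number 0.354 over the 3481 peaks, which share libraries and differ in depth.

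**Figure D2:**
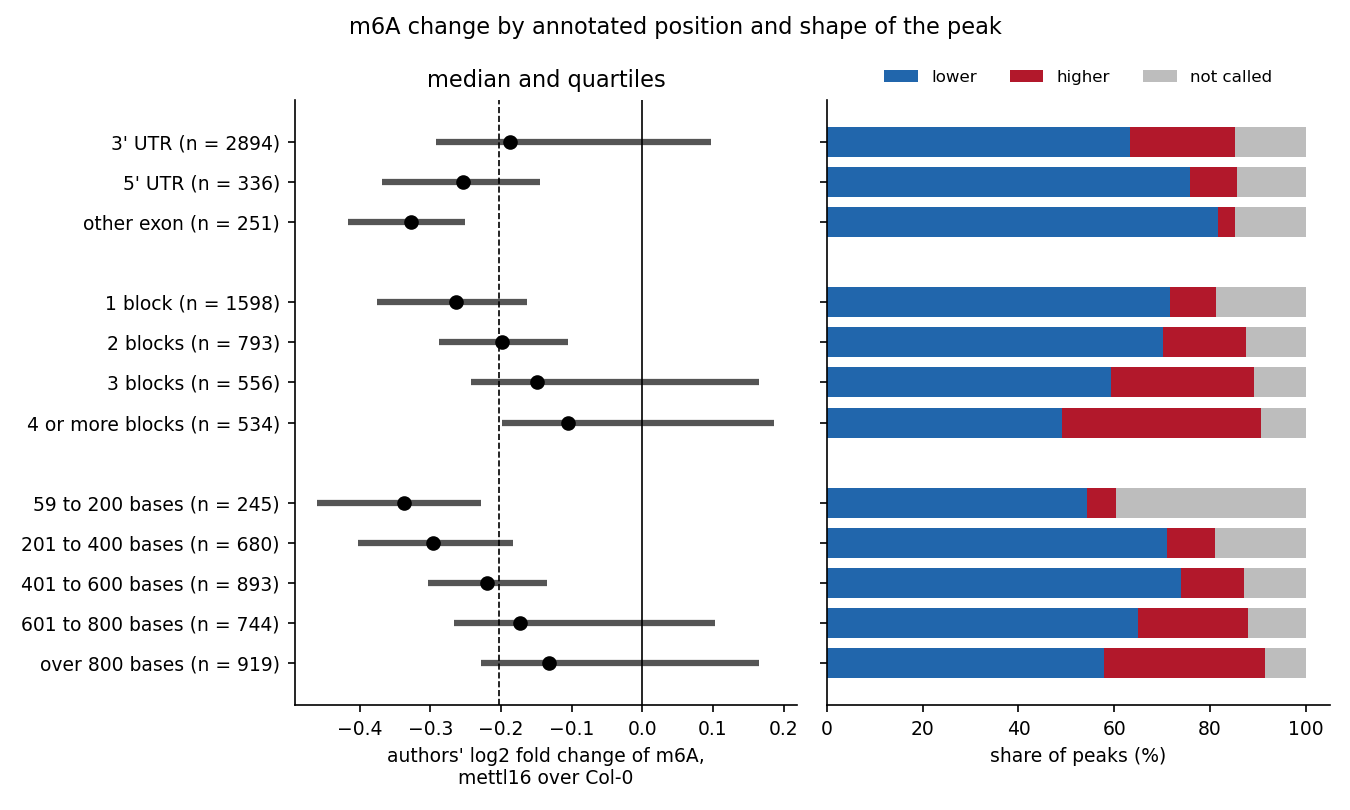
Peaks are grouped down the page by annotated position, number of blocks and width, with the number of peaks in each. Left, the median (point) and quartiles (bar) of the authors' log2 fold change, mettl16 over Col-0, with the overall median dashed; right, the share lower, higher and not called. Median folds run from -0.34 in the narrowest peaks to -0.13 in the widest, and the higher share reaches 41.6% at 4 or more blocks.

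Groups of genes were taken from the KEGG pathways and the gene descriptions of the authors' annotation. Among well expressed genes with a peak, 1282 have a pathway. Of 63 pathways and 28 description families with at least 10 such genes, those with the largest and smallest shares of lower or higher m6A are described. The counts describe these libraries and no group was tested against the others.

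The Ribosome pathway, which holds the structural proteins of cytosolic and organellar ribosomes, had 148 well expressed genes with a peak, of which 137 (92.6%) had lower and 4 higher m6A, but its median fold of -0.20 equals that of all genes and centred folds give 59 lower and 80 higher. Its folds lay close together, with quartiles of -0.27 and -0.14, against -0.31 and -0.07 over all 3249 genes. Of its 100 genes between 100 and 1000 FPKM, 100 had lower m6A, whereas 227 of 286 genes outside the pathway at that level did. Below 100 FPKM the counts were 37 of 48 inside and 1758 of 2791 outside. By position, 107 of 117 of its 3' UTR peaks and 34 of 35 of its 5' UTR peaks were lower in the authors' deposited table. Members with the smallest FDR were AT5G56710, an L31e protein, at -0.32 in its 5' UTR, AT1G41880, an L35Ae protein, at -0.35, and RPL12-A, a plastid L12 protein, at -0.27 in its 5' UTR and -0.56 in its 3' UTR in the authors' deposited table. AT5G56710 was expressed at 1001, 998 and 1033 FPKM in the mettl16 libraries, against 652, 673 and 651 FPKM in the Col-0 libraries, without overlap (log2 change 0.62, limma adjusted p = 2.54e-08). In all, transcripts of 134 of the 148 genes rose and 2 fell, where 47.7% rose and 25.7% fell over all 3249 genes. The 4 genes with higher m6A were AT1G26740 (0.34), AT5G23535 (0.26), AT1G80750 (0.23) and INV-E (0.17), an invertase that the annotation files here. They are given because they are few, and were chosen after their values were seen.

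Most heat shock genes had lower m6A and higher transcript levels. The heat shock family had 22 genes, of which 20 had lower and 1 had higher m6A, with a median fold of -0.29 beside -0.20 over all genes, and with centred folds 14 lower and 7 higher. Transcripts of 19 of the 22 rose and 1 fell, where 47.7% rose and 25.7% fell over all 3249 genes. HSP81-3 (AT5G56010), a cytosolic HSP90, had a 3' UTR peak (chromosome 5, 22683800 to 22684009) at -0.70 (FDR 1.58e-79) in the authors' deposited table. HSP81-3 transcript was at 283, 299 and 289.5 FPKM in the mettl16 libraries, against 124, 124 and 122 FPKM in the Col-0 libraries, without overlap (log2 change 1.23 ± 0.0269, SE, limma adjusted p = 5.47e-10). HSP81-2 and Hsp81.4 are near-identical copies of it, so reads could be split among the 3 genes and their values are uncertain. The plastid HSP70 cpHsc70-2 (AT5G49910) had a 3' UTR peak (chromosome 5, 20305902 to 20306469) at -0.60 in the authors' deposited table, where the log10 of its FDR is listed as -434. Its transcript was at 435, 435 and 437 FPKM in the mettl16 libraries, against 217, 219.9 and 217 FPKM in the Col-0 libraries, again without overlap (log2 change 1.00, limma adjusted p = 5.47e-10). The abundant cognate HSC70-1, at -0.35, and the other plastid form cpHsc70-1, at -0.23, were lower by less in the authors' deposited table. HSBP, which binds heat shock factors, was the 1 gene with higher m6A, at 0.11 in the authors' deposited table.

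The DnaJ or chaperone family was drawn by its own description words and can share genes with the heat shock family. Among its 38 genes 31 had lower and 4 higher m6A as deposited, and with centred folds 18 were lower and 17 higher. Its median fold of -0.21 was close to the -0.20 of all genes. The plastid chaperonin subunits CPN60A and Cpn60beta2 were at -0.58 and -0.63, and the cochaperonins CPN10 and CPN20 at -0.57 and -0.29, in the authors' deposited table. Cpn60beta2 transcript was at 263, 273 and 262 FPKM in the mettl16 libraries, against 115, 113 and 109.7 FPKM in the Col-0 libraries. The mettl16 values of Cpn60beta2 were all above the Col-0 values (log2 change 1.23, limma adjusted p = 8.12e-10). CPN60A averaged 464 ± 8.27 FPKM in mettl16 and 259 ± 4.86 FPKM in Col-0 (SD, n = 3 each) and rose by 0.84 on the log2 scale (limma adjusted p = 4.40e-09).

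Nucleolar genes of ribosome assembly also had lower m6A. Ribosome biogenesis in eukaryotes had 31 genes, 25 lower and 3 higher, with a median of -0.30 and centred counts of 17 lower and 10 higher. Transcripts of 25 of them rose and 2 fell, where 47.7% rose and 25.7% fell over all 3249 genes. NOP56, a core protein of the snoRNPs that methylate ribosomal RNA, had a 3' UTR peak (chromosome 1, 20984389 to 20985131) at -0.48 (FDR 1.00e-121) in the authors' deposited table. It was expressed at 141, 137 and 135 FPKM in the mettl16 libraries, against 62.6, 61.2 and 60.8 FPKM in the Col-0 libraries. NOP56 groups did not overlap (log2 change 1.15 ± 0.0285, SE, limma adjusted p = 1.15e-09). NAP57, the pseudouridine synthase of the other snoRNP class, was at -0.42 and the GTPase RAN3 at -0.49 in the authors' deposited table.

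Small metabolic pathways with a high share of lower m6A each held exceptions. Terpenoid backbone biosynthesis had 9 lower of 10 genes and 1 higher, and with centred folds 5 and 5. The exception was CLA1 (AT4G15560), which makes deoxyxylulose phosphate in the first step of the plastid isoprenoid pathway, with a 3' UTR peak (chromosome 4, 8886911 to 8887565) at 0.65 (FDR 1.00e-174) in the authors' deposited table. CLA1 transcript was at 165, 169 and 168 FPKM in the mettl16 libraries, against 264, 275 and 259.6 FPKM in the Col-0 libraries, without overlap (log2 change -0.67 ± 0.028, SE, limma adjusted p = 3.54e-08). The isoprenoid synthase gene cPT4 was at -0.51 in the authors' deposited table and its transcript rose by 1.13 on the log2 scale (limma adjusted p = 4.04e-09). Nitrogen metabolism had 9 lower and 1 higher of 11 genes, with centred counts of 5 and 5. NIT1, a nitrilase, was at -0.64 and the ferredoxin-dependent glutamate synthase GLU1 at -0.14, while the carbonic anhydrase BCA4 was at 0.13, in the authors' deposited table. Valine, leucine and isoleucine biosynthesis had 9 lower and 2 higher of 11 genes, with centred counts of 4 and 6. In the splicing family 9 of 11 genes were lower, 1 higher and 1 mixed, with centred counts of 4 and 6, and in the ubiquitin family 23 of 30 were lower and 2 higher, with 11 and 13 when centred.

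**Figure D3:**
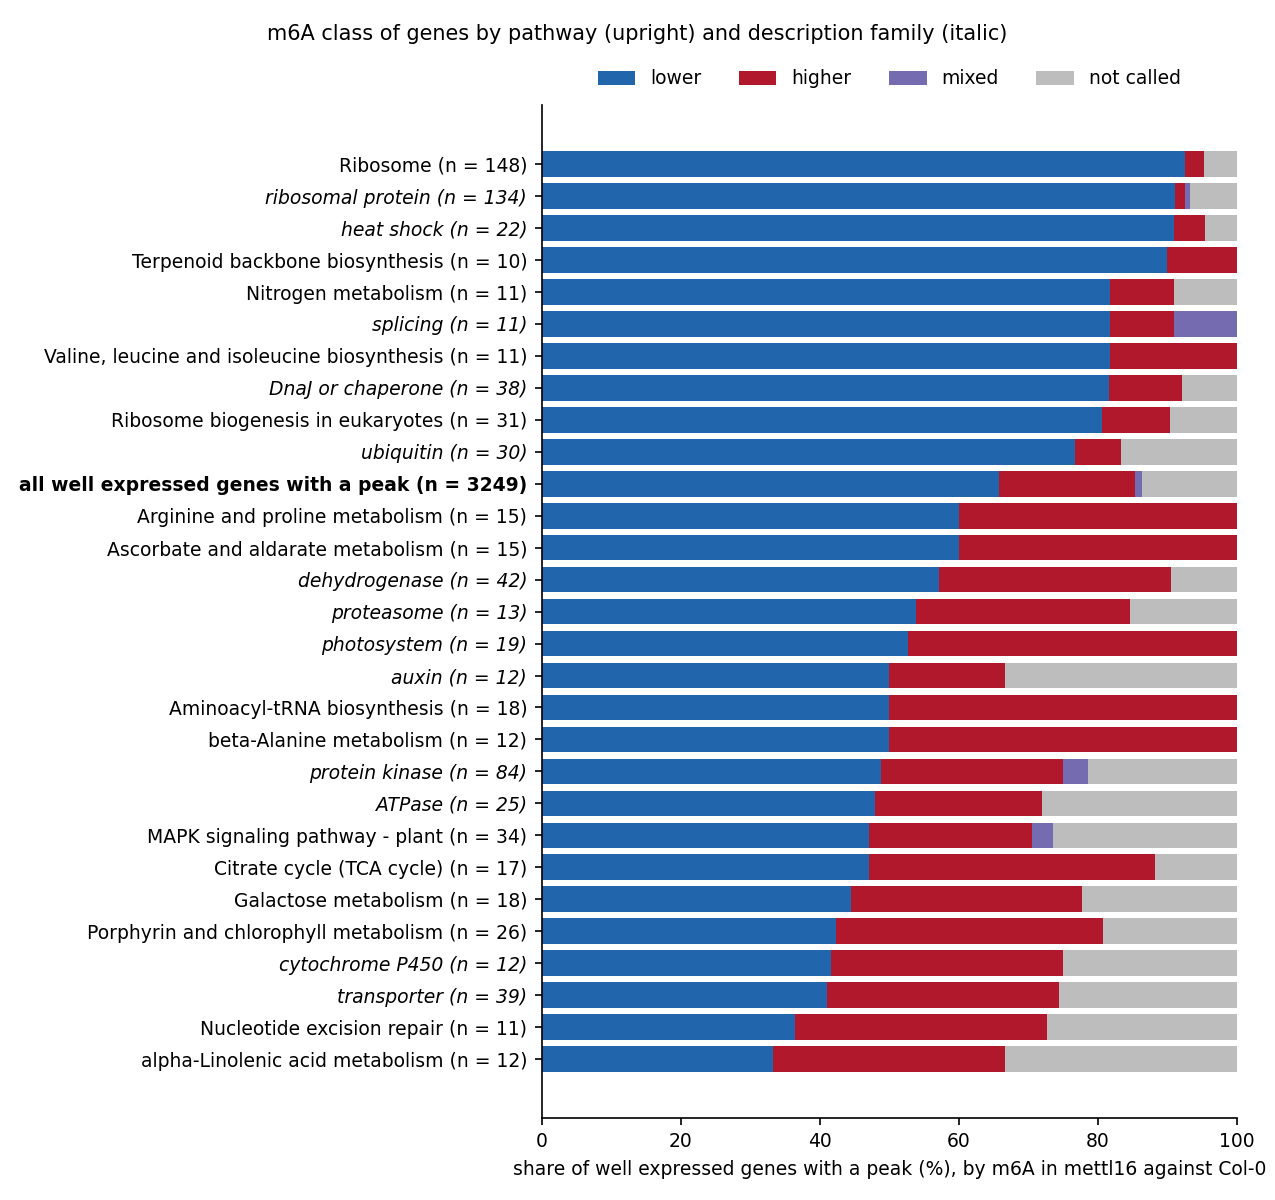
Bars give the share of well expressed genes with a peak that had lower, higher, mixed or uncalled m6A in mettl16 against Col-0, for pathways (upright) and description families (italic), with the number of genes in each. The Ribosome pathway is at 92.6% lower and alpha-linolenic acid metabolism at 33.3% lower, against 65.8% over all 3249 genes, with folds as deposited.

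Photosystem genes were split almost evenly. Of 19 genes described as photosystem components, 10 had lower and 9 higher m6A, with a median of -0.09, and with centred folds 5 were lower and 14 higher. LHCA2, an antenna protein of photosystem I, had a 3' UTR peak (chromosome 3, 22746828 to 22747282) at 0.36 (FDR 1.00e-258) in the authors' deposited table. Its transcript was at 2009.9, 1993 and 1965 FPKM in the mettl16 libraries, against 3079, 3101 and 3158 FPKM in the Col-0 libraries. All LHCA2 values in mettl16 were below all those in Col-0 (log2 change -0.65 ± 0.0208, SE, limma adjusted p = 6.62e-09). Other higher members were LHCB4.1, at 0.21, and the core subunits PSAL, PSAF and PSBR, at 0.21, 0.27 and 0.28, in the authors' deposited table. PSBY, a small photosystem II protein, was lower at -0.34 in its 5' UTR (chromosome 1, 25394684 to 25395154), PSAG was lower at -0.13 in its 5' UTR, and the antenna gene LHCB3 was lower at -0.25, in the authors' deposited table. PSBY was expressed at 1899.5, 1748 and 1737 FPKM in the mettl16 libraries, against 2392, 2274 and 2300.1 FPKM in the Col-0 libraries, without overlap, and fell by 0.37 on the log2 scale (limma adjusted p = 1.46e-05). Of the 20 light-harvesting genes listed, all well expressed, 5 had a peak, 3 of them lower and 2 higher, or 2 and 3 with folds centred. None of the 5 Rubisco genes listed had a peak in the authors' deposited table.

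Chlorophyll synthesis was likewise divided. In porphyrin and chlorophyll metabolism 11 of 26 genes had lower and 10 had higher m6A, and with centred folds 4 were lower and 17 higher. CH1 (AT1G44446), the oxygenase that makes chlorophyll b, had a 3' UTR peak (chromosome 1, 16848359 to 16848687) at 0.60 (FDR 1.00e-45) in the authors' deposited table. CH1 transcript was at 65.9, 66.6 and 67.5 FPKM in the mettl16 libraries, against 123, 128 and 126 FPKM in the Col-0 libraries, without overlap (log2 change -0.90 ± 0.0276, SE, limma adjusted p = 4.64e-09). HEME1, a uroporphyrinogen decarboxylase, was higher at 0.47 in the authors' deposited table and its transcript fell by 0.46 on the log2 scale (limma adjusted p = 9.01e-07). The subunits of magnesium chelatase, which commits porphyrin to chlorophyll, differed in direction. ALB1, its D subunit, was higher at 0.38, whereas GUN5, its H subunit, was lower at -0.25, and the I subunits CHLI1 and CHLI2 were lower at -0.07 and -0.17, in the authors' deposited table. GUN5 was expressed at 814, 849.7 and 832 FPKM in the mettl16 libraries, against 831, 832 and 831 FPKM in the Col-0 libraries, with overlapping groups (limma adjusted p = 0.987). CHLI1 and CHLI2 were chosen after their values were seen, as partners of ALB1 and GUN5.

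Several pathways had a small share of lower or a large share of higher m6A, and some had similar numbers in both directions. Aminoacyl-tRNA biosynthesis had 9 lower and 9 higher of 18 genes, with centred counts of 4 and 14. Transcripts of 13 of the 18 rose and 2 fell, where 47.7% rose and 25.7% fell over all 3249 genes. EMB2761, a threonyl-tRNA synthetase, was at -0.25 and ALATS, an alanyl-tRNA synthetase, at 0.19 in the authors' deposited table, and their transcripts rose by 0.26 and 0.29 on the log2 scale. The citrate cycle had 8 lower and 7 higher of 17 genes, with centred counts of 3 and 12. The plastid pyruvate dehydrogenase subunits PDH-E1 ALPHA and PDH-E1 BETA were at -0.36 and -0.40, while aconitase ACO1 was at 0.20 and AT2G20420, described as an ATP citrate lyase family protein, at 0.38, in the authors' deposited table. Alpha-linolenic acid metabolism, which leads to jasmonate, had the smallest share of lower genes, with 4 lower and 4 higher of 12, or 1 and 7 when centred. The lipoxygenase LOX2 was at -0.19 and the acyl-CoA oxidase ACX4 at 0.19 in the authors' deposited table. Nucleotide excision repair had 4 lower and 4 higher of 11 genes, in both countings, with POLD4 at -0.92 and RAD23C at 0.40 in the authors' deposited table. Galactose metabolism had 8 lower and 6 higher of 18, beta-alanine metabolism 6 and 6 of 12, ascorbate and aldarate metabolism 9 and 6 of 15, and arginine and proline metabolism 9 and 6 of 15. The MAPK signaling pathway had 16 lower and 8 higher of 34. Transcripts of 18 of its genes fell and 7 rose, where 25.7% fell and 47.7% rose over all 3249 genes. With folds centred, these 5 pathways had 4 lower and 10 higher, 2 and 10, 5 and 10, 5 and 10, and 11 and 13 genes, in the order named.

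Families with few lower genes included transporters and kinases. Transporters had 16 lower and 13 higher of 39 genes, cytochrome P450 genes 5 and 4 of 12, ATPase genes 12 and 6 of 25, protein kinases 41 and 22 of 84, auxin genes 6 and 2 of 12, dehydrogenases 24 and 14 of 42 and proteasome genes 7 and 4 of 13. With folds centred, higher genes outnumbered lower ones in 6 of these families, by 17 to 12, 7 to 2, 12 to 6, 40 to 24, 22 to 16 and 6 to 5, and the auxin family had 4 of each. PEN3 (AT1G59870), an ABC transporter of defence at the plasma membrane, had a 3' UTR peak (chromosome 1, 22039619 to 22040038) at 0.55 (FDR 1.58e-19) in the authors' deposited table. PEN3 transcript was at 48.7, 50.4 and 50.2 FPKM in the mettl16 libraries, against 93.6, 94.6 and 94.0 FPKM in the Col-0 libraries. Its mettl16 values were all below its Col-0 values (log2 change -0.90 ± 0.0275, SE, limma adjusted p = 4.50e-09). The auxin efflux carrier PIN7 was lower at -0.35, and the plastid G6PD1, a dehydrogenase of the pentose phosphate pathway, was higher at 0.44, in the authors' deposited table. G6PD1 transcript averaged 45.1 ± 1.44 FPKM in mettl16 and 88.4 ± 1.72 FPKM in Col-0 (SD, n = 3 each) and fell by 0.96 on the log2 scale (limma adjusted p = 9.18e-09).

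The m6A machinery had only 4 well expressed genes with a peak, 3 of them with higher m6A. Of 25 genes listed, 12 are well expressed, and the 4 with a peak are all m6A readers of the YTH family. As deposited and with folds centred alike, 3 were higher, 1 was not called and none was lower. Over all 3249 genes 65.8% had lower and 19.6% higher m6A, and 4 genes are too few to compare with these shares. ECT1, ECT2 and ECT6 had higher 3' UTR peaks at 0.24 (FDR 2.88e-04), 0.16 (FDR 0.00166) and 0.32 (FDR 0.0162), and ECT8 one at 0.12 (FDR 0.0575) that was not called, in the authors' deposited table. ECT2 was expressed at 122, 125 and 124 FPKM in the mettl16 libraries, against 69.2, 91.5 and 89.8 FPKM in the Col-0 libraries. The lowest mettl16 value of ECT2 was above the highest Col-0 value, with Col-0 replicate 1 below the others of its group (log2 change 0.57 ± 0.114, SE, limma adjusted p = 0.00692). ECT1 and ECT8 transcripts rose by 0.55 and 0.64, and ECT6 had a log2 change of -0.48 (limma adjusted p = 1.01e-06, 1.57e-06 and 7.66e-06). Below 10 FPKM, ECT9 was higher at 0.27 and ECT11 lower at -0.62, while MTC and ECT4 were at 0.51 and -0.17 without a call, in the authors' deposited table. None of the 17 methionine cycle genes, which supply the methyl donor, had a peak there, though 15 are well expressed.

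Of the 11 genes listed for catalases and photorespiration 7 had a peak, and 7 of 7 had lower m6A, or 6 lower and 1 higher with folds centred. Over all well expressed genes with a peak 65.8% had lower m6A. Between 100 and 1000 FPKM 84.7% did, and at or above 1000 FPKM, where some of the 7 lie, 16 of 24 did. CAT2, the main leaf catalase, had a 3' UTR peak (chromosome 4, 16700670 to 16701147) at -0.38 (FDR 1.00e-102) in the authors' deposited table. CAT2 transcript was at 1186, 1201 and 1186 FPKM in the mettl16 libraries, against 666, 689.8 and 657 FPKM in the Col-0 libraries, without overlap (log2 change 0.83, limma adjusted p = 3.58e-09). The glycolate oxidases GOX1 and GOX2, the glycine decarboxylase proteins GLDP1 and GLDP2, the hydroxymethyltransferase SHM1 and the aminotransferase AGT ranged from -0.38 to -0.20 in the authors' deposited table. GOX1 and GOX2 are adjacent and similar copies, so their values are uncertain. In the circadian and flowering list of 29 genes, 10 had a peak and 8 of these are well expressed, 7 of them with lower m6A as deposited but 2 lower and 5 higher with folds centred. LHY and CCA1, the morning factors of the clock, were both at -0.14, PRR7 at -0.14, COL4 at -0.16, GRP7 at -0.19 and SPL9 at -0.28, and TOE1 at -0.12 was not called, in the authors' deposited table. Transcripts of LHY and SPL9 rose by 1.09 and 0.73 on the log2 scale, and those of PRR7 and COL4 had log2 changes of -0.71 and -0.65 (limma adjusted p = 7.84e-07, 1.24e-06, 6.17e-08 and 4.18e-08). In the list of 24 jasmonate and defence genes, 4 of 5 well expressed genes with a peak were lower and JAZ9, a jasmonate repressor, was higher at 0.24 in the authors' deposited table, and with folds centred 1 was lower and 4 higher. Of 19 SR splicing factors, 5 were well expressed with a peak, 3 of them lower (RS40, RS41 and SCL30A), SR34A higher at 0.10 and SR30 not called at 0.16 in the authors' deposited table, or 1 lower and 3 higher with folds centred. PIP1B, lower at -0.39 and also lower with folds centred, was the only one of 13 PIP aquaporin genes with a peak in the authors' deposited table.

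Peaks of 1 gene could share a direction or differ in it. A single peak was listed for 3035 of the 3249 genes in the authors' deposited table, 2 for 201 and 3 or more for 13, and intervals overlapped in 83 of the 214 with more than 1. Among 86 genes with at least 2 called and no overlapping peaks, called peaks were all lower in 62, all higher in 2 and of both directions in 22. Counting overlapping intervals too, the numbers were 110, 12 and 31 of 153. Over all called peaks in well expressed genes 77.1% were lower, so peaks of a gene would often share a direction in any case. Whether they did so more often was not tested. Of the 31 genes with both directions, 10 had the lower peak in the 5' UTR and the higher one in the 3' UTR, 3 had the reverse and 14 had both in the 3' UTR. UGT71C4 (AT1G07250), a glucosyltransferase, had the widest gap, with a 5' UTR peak (chromosome 1, 2225900 to 2226079) at -0.56 (FDR 1.78e-10) and a 3' UTR peak (chromosome 1, 2227269 to 2227566) at 0.52 (FDR 1.74e-05) in the authors' deposited table. UGT71C4 was expressed at 23.8, 23.3 and 23.0 FPKM in the mettl16 libraries, against 27.1, 26.5 and 27.6 FPKM in the Col-0 libraries. AT5G07900, a mitochondrial transcription termination factor protein, was at -0.53 in its 5' UTR and 0.28 in its 3' UTR, whereas AT1G23180, an ARM repeat protein, was at 0.63 in its 5' UTR and -0.26 in its 3' UTR, in the authors' deposited table. AT5G51410, a LUC7 domain protein, and the GTPase RABA4B each had called 3' UTR peaks at 0.71 and -0.32, and at -0.26 and 0.56, in the authors' deposited table.

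The genes with the most entries differed in what these hold. NPH3, a phototropism signalling protein, had 5 entries in the authors' deposited table, of which 4 repeat 1 interval, all between -0.20 and -0.18. AT5G40340, a Tudor/PWWP/MBT protein, had 4 separate peaks in its exon 2 of 2, the first at chromosome 5, 16131654 to 16131922 and the last at chromosome 5, 16134243 to 16134511, with folds of -0.48, -0.35, -0.34 and -0.43, in the authors' deposited table. AT5G40450, which has no description, had 1 in its 3' UTR at -0.34 and 3 in its exons at -0.29, -0.34 and -0.33 in the authors' deposited table. AT5G40450 transcript was at 13.3, 14.2 and 13.9 FPKM in the mettl16 libraries, against 36.7, 37.0 and 35.3 FPKM in the Col-0 libraries, without overlap (log2 change -1.34, limma adjusted p = 3.42e-09). CIB1, a factor that binds a blue light receptor, had 4 entries in 2 nearly identical pairs, at -0.22 and -0.22 without a call and at 0.43 and 0.42 with one, in the authors' deposited table. CIB1 was expressed at 1.62, 9.45 and 9.48 FPKM in the mettl16 libraries, against 13.2, 14.3 and 13.4 FPKM in the Col-0 libraries. Its mettl16 replicate 1 stood below the other two, and the log2 change of -1.15 (limma adjusted p = 0.196) was -0.48 (adjusted p = 8.68e-05) without it.

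The m6A fold and the expression change of a gene were weakly and inversely related over the well expressed genes. Of 2138 genes with lower m6A, transcripts of 1147 rose (53.6%) and 427 fell. Of 636 genes with higher m6A, 196 rose (30.8%) and 266 fell. Where log2 values were centred on each library's median, the counts were 963 and 576 for lower m6A, and 149 and 314 for higher m6A. Read the other way, 74.0% of the 1549 genes that rose had lower and 12.7% higher m6A, against 51.1% and 31.9% of the 835 that fell and 65.2% and 20.1% of the 865 not called.

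The gradient followed the size of the expression change. Lower m6A was seen in 17 of 54 genes with an expression log2 change below -1 (31.5%) and in 87 of 99 genes at 1 or more (87.9%). Higher m6A was seen in 22 of those 54 (40.7%) and in 1 of those 99 (1.01%). Median folds per gene were 0.15 below -1, -0.19 between 0 and 0.25, and -0.33 at 1 or more, in the authors' deposited table. Of the 3249 genes, 168 averaged 10 FPKM in mettl16 alone and 72 in Col-0 alone, SEP3, PER64, DMR6 and CDEF1 among them, which passed the limit through the genotype where they are high. In the 3009 genes at 10 FPKM or more in each genotype, a restriction chosen after seeing the data, 11 of 36 below -1 (30.6%) and 59 of 63 at 1 or more (93.7%) had lower m6A, and 13 and 0 had higher m6A. Outside the Ribosome pathway the shares of lower m6A were 31.5% below -1 and 87.5% at 1 or more. Spearman's rho of the mean fold with the expression change was -0.206 over the 3249 genes, -0.177 over those 3009, -0.208 over 3101 genes outside the Ribosome pathway, -0.0404 within the 2138 lower genes and -0.0762 within the 636 higher genes. The input libraries gave the expression values and may also enter the authors' fold, for which the sources used here give no definition, so the values may share libraries. The part of this in the relation was not tested.

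**Figure D4:**
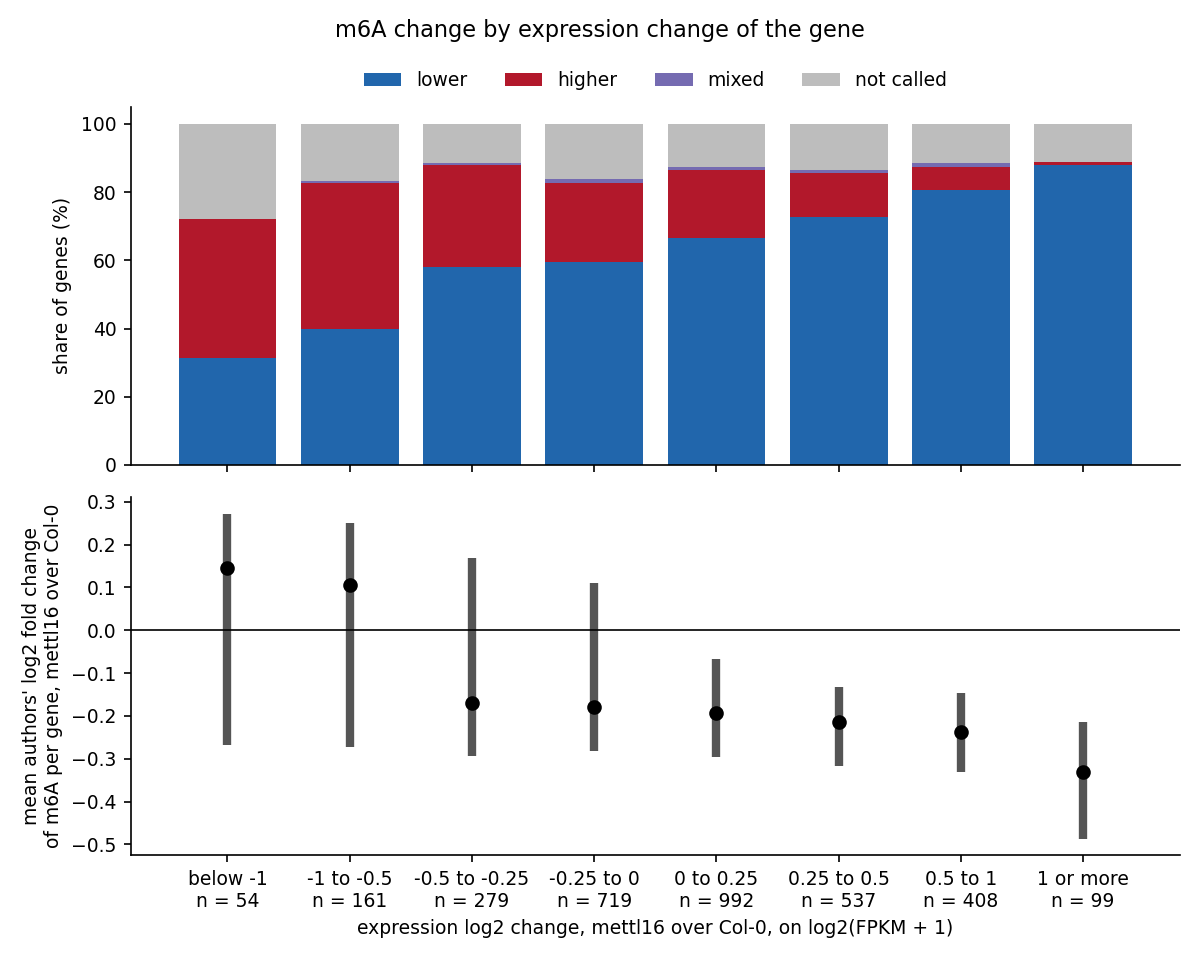
Well expressed genes with a peak are binned by expression log2 change, mettl16 over Col-0, from falls on the left to rises on the right, with the number of genes. Above, the share with lower, higher, mixed or uncalled m6A; below, the median (point) and quartiles (bar) of the mean authors' log2 fold per gene. Lower m6A runs from 31.5% below -1 to 87.9% at 1 or more.

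Individual genes show all combinations. With lower m6A, transcripts rose most for the peroxidase gene PER64, SEP3, AT2G21640, the early light-induced protein gene ELIP2 and the cytosolic chaperone gene HSP70. ELIP2 had a 3' UTR peak of 90 bases at -0.84 (FDR 0.017) in the authors' deposited table and was expressed at 77.9, 73.5 and 72.2 FPKM in the mettl16 libraries, against 11.3, 11.7 and 10.1 FPKM in the Col-0 libraries. HSP70 was at -0.29 (FDR 5.25e-06) in the authors' deposited table and was expressed at 111, 114 and 111 FPKM in the mettl16 libraries, against 16.9, 17.6 and 16.8 FPKM in the Col-0 libraries. Neither gene had overlapping groups, and their log2 changes were 2.65 and 2.65 (limma adjusted p = 3.76e-10 and 1.85e-11). AT2G21640 had a 5' UTR peak at -0.77 (FDR 5.01e-20) in the authors' deposited table and rose by 3.06 on the log2 scale. PER64 was at 19.0, 21.5 and 20.8 FPKM in the mettl16 libraries and at 0.0792 FPKM in 1 Col-0 library, and was listed at 0 in the other two. Its peak at -0.15 in the authors' deposited table, like that of SEP3, is thus set against nearly no Col-0 transcript.

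Lower m6A with a fall in transcript was led by CCL, EXT3, CDEF1, GRP9 and AT3G01920. EXT3, an extensin of the cell wall, had a 5' UTR peak (chromosome 1, 7453503 to 7455009) at -0.46 (FDR 6.31e-51) in the authors' deposited table. EXT3 transcript was at 17.8, 18.1 and 15.6 FPKM in the mettl16 libraries, against 76.1, 73.8 and 72.9 FPKM in the Col-0 libraries, without overlap (log2 change -2.06, limma adjusted p = 1.71e-09). CCL and the glycine-rich protein gene GRP9 were at -0.26 and -0.59 in the authors' deposited table, also in 5' UTRs, and their transcripts had log2 changes of -2.18 and -1.76 (limma adjusted p = 1.15e-10 and 6.56e-08).

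Higher m6A with a fall in transcript was led by DMR6, BBX27, GPRI1, AT1G64150 and AT2G29670. DMR6 (AT5G24530), a salicylic acid hydroxylase that restrains immunity, had a 3' UTR peak (chromosome 5, 8382953 to 8383371) at 0.77 (FDR 1.10e-10) in the authors' deposited table. DMR6 transcript was at 8.64, 9.66 and 9.67 FPKM in the mettl16 libraries, against 41.2, 41.7 and 41.3 FPKM in the Col-0 libraries. The 2 groups of DMR6 values lay far apart (log2 change -2.04 ± 0.046, SE, limma adjusted p = 6.59e-10), and its mean in mettl16 is below 10 FPKM. GPRI1, a regulator of chloroplast development, was at 0.19 and the B-box gene BBX27 at 0.40 in the authors' deposited table, with expression log2 changes of -1.58 and -1.73 (limma adjusted p = 1.58e-10 and 3.00e-09). Higher m6A with a rise in transcript was led by MORF1, RACK1B_AT, OMR1, RBP47A and AT2G44640, with expression log2 changes of 0.84 to 0.97. RBP47A, an RNA-binding protein, had a 3' UTR peak (chromosome 1, 18356886 to 18358230) at 0.43 (FDR 1.00e-20) in the authors' deposited table. RBP47A was expressed at 68.2, 68.0 and 65.7 FPKM in the mettl16 libraries, against 38.8, 35.7 and 34.6 FPKM in the Col-0 libraries, without overlap (log2 change 0.87 ± 0.0427, SE, limma adjusted p = 9.78e-08). MORF1, an organelle RNA editing factor, RACK1B_AT, a ribosome-associated scaffold, and OMR1, a threonine deaminase, were at 0.17, 0.22 and 0.36 in the authors' deposited table.

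**Figure D5:**
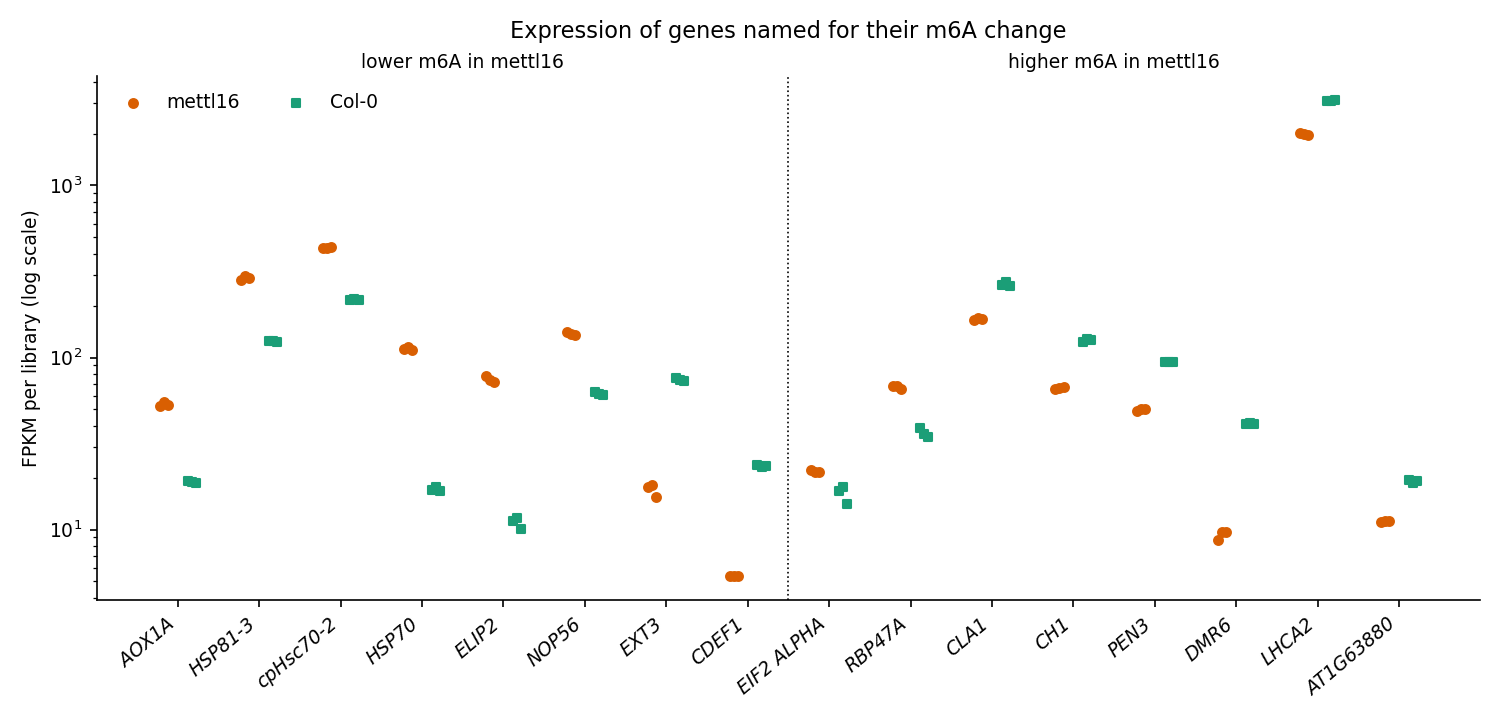
FPKM of the 3 mettl16 (circles) and 3 Col-0 (squares) RNA-seq libraries on a log axis for 16 genes, with lower m6A on the left and higher m6A on the right of the dotted line. The 16 were picked from the named genes, several of them named for a large expression change. Groups do not overlap in any of the 16, and named genes with overlapping values, such as IAA28, are not drawn. Over all 19505 tested genes, mettl16 values were all above those in Col-0 in 43.9% and all below in 25.9%. EXT3 and CDEF1 with lower m6A were lower in mettl16, and EIF2 ALPHA and RBP47A with higher m6A were higher in mettl16.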

How the data were processed

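RNA-seq inputs and m6A immunoprecipitates of mettl16 and Col-0 were collected, 3 biological replicates each. Libraries kept strand, per the labels' protocols. Per the submitters' processing notes, the build was TAIR10 and the tools included edgeR, HOMER, StringTie, HISAT2, fastp and cutadapt, with no roles stated. The authors deposited 1 differential peak table with a log2 fold change, p-values and a score, the log10 of the FDR, per peak, and 1 table of FPKM per gene and input library. No m6A value per library was used here, so m6A differences have no replicate error of their own. Not given in the sources used here are the fold's definition, the peak caller, the use of inputs and replicates, and whether counting used strand. Read depth is unknown from FPKM.

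Coordinates are 1-based in TAIR10. Peaks were joined to genes by locus. Expression was tested on log2(FPKM + 1) with limma 3.58.1 (trend, robust, R 4.3.3) over 19505 genes averaging 0.5 FPKM or more, with Benjamini-Hochberg adjustment and no replicate block. Tables were handled in Python 3.11.15 with pandas 2.3.3, NumPy 2.4.6 and SciPy 1.17.1, and drawn with matplotlib 3.10.9. The limma step was tested on simulated data. No per-library column was left unassigned to a sample. Genes named are the 10 with the lowest and the 10 with the highest folds called at an FDR under 0.05, the 5 with most peaks, the 5 widest gaps between opposite peaks, the 5 largest expression rises and falls in each m6A class, the 10 highest FPKM and up to 4 members with the smallest FDR of each group described. Further members of the short lists were chosen after their values were seen. Members and lists were chosen with earlier results of these data known. Settings tried were other FPKM, FDR and fold limits, centred folds, other expression scalings, single replicates left out, and a replicate block. Sequences and motifs were not analysed here. A gene that the naming rule covers is not reported here.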

Additional observations from a re-analysis of the deposited data

How the results depend on the processing

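Counts of genes with lower (2138) and higher (636) m6A moved by over 1.5 times under these settings. With an absolute log2 fold of at least 0.5 they were 159 and 40, with a mean of at least 20 FPKM 1411 and 376, and with folds centred on the median 1274 and 1472. With no minimum level, 1069 genes had higher m6A. Stricter or looser settings of FDR 0.01 gave 1794 and 498, and 5 FPKM 2640 and 854. Settings chosen after seeing the data gave 2001 and 596 genes with at least 10 FPKM in each genotype, 2038 and 629 with peaks of at least 200 bases, and 2001 and 632 without the Ribosome pathway. Leaving out each input replicate in turn gave 2117 to 2148 lower and 633 to 639 higher genes and a median fold of -0.203 to -0.202. The same step gave 1085 to 1129 rises and 385 to 406 falls in genes with lower m6A, and 185 to 194 rises and 249 to 256 falls in genes with higher m6A. Same-numbered input libraries of the genotypes did not deviate together over the tested genes (r = -0.082, 0.009 and 0.002). Differently numbered ones lay between -0.083 and 0.084. Whether a number marks a shared batch cannot be told from these values, which do not cover the immunoprecipitates. A replicate block gave 1141 rises and 418 falls with lower m6A, and 196 rises and 262 falls with higher m6A. Centring thus made higher m6A the larger called class, at 45.3% of the 3249 genes. It did so too in the Ribosome pathway (59 lower, 80 higher) and the splicing family (4 and 6) among others. No called expression change of a named gene changed direction. Uncalled changes near 0 of AT1G07590, IAA28, IMPL1 and RABA4B did under some settings, and AT1G07590 was called at -0.09 with quantile normalization. The cause of the moves was not tested, except that higher limits leave fewer genes. No replicate test of m6A was possible from the deposited table.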
